A study of Homo sapiens with 4 samples.

Results

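The genes that make, store, recapture and break down catecholamines were followed in IMR-32 cells, an established human neuroblastoma line with amplified MYCN, after knockdown of the transcription factor NeuroD1. The set held 9 genes of the 60612 in the count table and was chosen by name: GCH1, TH, DDC, DBH, SLC18A1, SLC18A2, SLC6A2, MAOA and MAOB. Cells of both groups were stably transduced with a short hairpin RNA that doxycycline switches on, and RNA interference was induced with 1 µg/mL doxycycline for 48 h. The hairpin was a negative control in shControl (n = 2 libraries) and was directed at NeuroD1 in shNeuroD1 (n = 2 libraries). The genotype label calls the control cells wild type. The study's own table of this comparison names the same NeuroD1 hairpin in both knockdown libraries, so a second hairpin was not represented. Nothing in the labels says that the libraries of a group came from separate cultures, so the p-values below measure the spread between these libraries, which may be technical.

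Catecholamines are made from tyrosine. Tyrosine hydroxylase (TH) makes L-DOPA in the rate-limiting step with tetrahydrobiopterin (BH4) as its cofactor, aromatic L-amino acid decarboxylase (DDC) turns L-DOPA into dopamine, and dopamine beta-hydroxylase (DBH) turns dopamine into noradrenaline inside vesicles. Vesicular monoamine transporters fill the vesicles, the noradrenaline transporter takes released transmitter back up, and monoamine oxidases break it down. Neuroblastoma arises from the sympathetic lineage, and catecholamine breakdown products in urine are used to detect it.

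The libraries held between 14665210 and 16482463 counts, and the 9 genes together took between 2268 and 3382 of them. NEUROD1 fell to 14.6% of its control level (log2 fold change -2.77, edgeR adjusted p 8.6e-29), so the labels and the targeted gene match. Each of 9 sympathetic neuroblast markers had at least 10 counts in every library, and their summed level lay between 2629 and 2786 CPM (counts scaled to the effective library size). Leukocyte markers (5 genes) summed to at most 0.657 CPM, and CD3E, which defines T cells, was at 0 in all libraries. Schwann cell precursor markers (7 genes) summed to 5.42 and 5.43 CPM in shControl and 8.74 and 10.1 CPM in shNeuroD1, with FOXD3 and CDH19 at 0 throughout. Of 8 mesenchymal markers 5 fell and 1, the intermediate filament gene VIM, rose, which moved their summed level from 482.5 and 483.6 CPM to 712.3 and 700.1 CPM, with PRRX1 at 0 throughout. Mitochondrial genes took 4.37% and 4.59% of control counts and 5.39% and 5.51% of knockdown counts. The part of these shifts in the results below was not tested.

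After NeuroD1 knockdown, transcripts of the catecholamine pathway moved in both directions. TH, DDC and the monoamine oxidase gene MAOA rose, by 5.66-fold, 1.43-fold and 4.67-fold. The noradrenaline transporter gene SLC6A2 fell to 57.0% of its control level and DBH to 49.2%. GCH1 and the vesicular transporter gene SLC18A2 did not pass the test, and SLC18A1 and MAOB had no count in any library. In these bulk libraries a change in the number of cells that express a gene cannot be told apart from a change in RNA per cell.

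Of the 9 genes, 7 passed the filter on low counts and were tested, 3 rose and 2 fell at an adjusted p under 0.05 (edgeR quasi-likelihood test, adjusted over 17537 genes). Across all genes tested, 26.8% rose and 28.2% fell at the same threshold. Counts of 3 and 2 among 7 genes lie near that background and are not a result about the set. With a log2 fold change beyond 1 as well, 2 members rose (TH and MAOA) and 1 fell (DBH), against 8.79% and 5.14% of all genes. TH passed the filter only through shNeuroD1, the group where it is high, so its call is no support for either count. The median log2 fold change of the 7 tested members was 0.04, beside 0.0084 over all genes. Scaling by library size alone moved the median of all genes to 0.12 and the calls over all genes from 4698 higher and 4939 lower to 6114 higher and 3639 lower. The directions of the 5 called members were the same under that scaling.

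**Figure D1:**
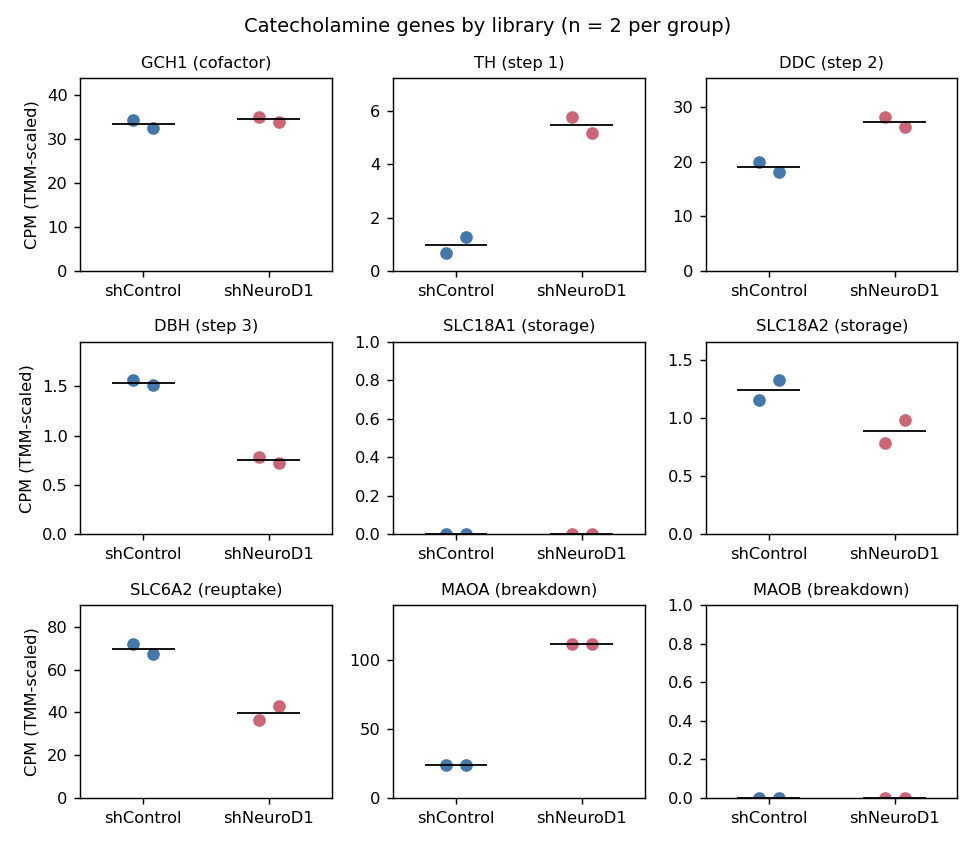
TMM-scaled CPM (y axis) of each of the 9 genes in the 2 shControl and 2 shNeuroD1 libraries (x axis), with a point per library and a line at the group mean. MAOA stands at 24.0 and 23.9 CPM in shControl and at 112 CPM in both shNeuroD1 libraries, TH is higher and SLC6A2 lower in both knockdown libraries, and SLC18A1 and MAOB are at 0 throughout.

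The first step of BH4 synthesis is made by GTP cyclohydrolase 1, encoded by GCH1 (ENSG00000131979, GRCh38 chromosome 14, 54842008 to 54902852, minus strand). GCH1 had 508 and 517 counts under the control hairpin and 534 and 517 after knockdown, or 33.5 ± 1.35 and 34.5 ± 0.813 CPM (SD, n = 2). The shControl and shNeuroD1 libraries overlapped. The log2 fold change was 0.04 with a 95% confidence interval from -0.11 to 0.20 (edgeR adjusted p 0.659), and in the assembled transcripts its FPKM was 6.34 and 6.98 for the controls against 8.86 and 7.70 after knockdown. FPKM corrects the fragments of a transcript for its length and for sequencing depth, and it was summed over the transcript starts listed for a gene. A splicing event inside GCH1 (54845768 to 54847130) stood at 7.74 and 7.81 FPKM in shControl and 8.86 and 7.70 FPKM in shNeuroD1. The groups overlapped there, and the listed starts held less than this in shControl.

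TH (ENSG00000180176, chromosome 11, 2163929 to 2171877, minus strand) was detected on few reads in control cells. It had 10 and 20 counts under the control hairpin and 88 and 79 after knockdown. Both knockdown libraries lay far above both control libraries, and the controls differed from each other on few reads. The level rose from 0.969 ± 0.411 to 5.49 ± 0.422 CPM (SD, n = 2), a log2 fold change of 2.48 (95% interval 1.89 to 3.06, SE 0.288, edgeR adjusted p 8.3e-09). TH met the cutoff of the filter, 0.665 CPM, in 1 shControl library and both shNeuroD1 libraries. It was therefore tested only through the group where it is high, and its adjusted p is to be read with that limit. Leaving out 1 library at a time gave log2 fold changes from 2.12 to 3.0. The FPKM tables list no TH start in shControl replicate 1 and give a summed value of 0.699 in shControl replicate 2, with 1.58 and 1.40 in shNeuroD1. Most of it came from a start whose first exon spans 2171697 to 2171805, at 0.582, 1.27 and 1.24 FPKM in those 3 libraries.

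DDC (ENSG00000132437, chromosome 7, 50458436 to 50565457, minus strand), which also makes serotonin from 5-hydroxytryptophan, had 294 and 288 counts under the control hairpin and 429 and 401 after knockdown. Both knockdown libraries were higher than both controls. The level went from 19.0 ± 1.28 to 27.3 ± 1.32 CPM (SD, n = 2), a log2 fold change of 0.52 (95% interval 0.33 to 0.71, SE 0.0946, edgeR adjusted p 2.2e-05). In limma fits on log2(FPKM + 1) and log2(FPKM + 0.1) the direction was the same at 0.67 and 0.75, with adjusted p of 0.0692 and 0.0718. FIGNL1 overlaps DDC on the same strand and had 1155, 1251, 930 and 944 counts in the 4 libraries.

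DDC is known to have a neuronal and, further upstream, a non-neuronal promoter. In all 4 libraries most of the DDC signal in assembled transcripts came from a start whose first exon spans 50561014 to 50561054, with 5.62 and 5.71 FPKM in shControl and 9.40 and 8.96 FPKM in shNeuroD1. A start further upstream, with a first exon from 50562029 to 50562148, was listed in shNeuroD1 replicate 1 alone (0.822 FPKM). A start inside the gene, with a first exon from 50479787 to 50479963, stood at 0.135, 0.0966, 0.342 and 0.177 FPKM. The start in use therefore lay at the downstream, neuronal window in both groups. An exon of 114 bases (50539915 to 50540028) was included in 75.4% and 66.0% of DDC transcript signal in shControl and 73.4% and 84.7% in shNeuroD1, computed as the FPKM of transcripts with the exon over that of transcripts with and without it. The groups overlapped in this share.

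DBH (ENSG00000123454, chromosome 9, 133635348 to 133659344, plus strand), a marker of noradrenergic cells, went the other way from TH and DDC. It had 23 and 24 counts under the control hairpin and 12 and 11 after knockdown. Both knockdown libraries were lower than both controls, with little spread within a group but few reads in any library. The level went from 1.54 ± 0.0347 to 0.756 ± 0.0470 CPM (SD, n = 2), a log2 fold change of -1.01 (95% interval -1.84 to -0.19, SE 0.406, edgeR adjusted p 0.0342). The call was lost with library size alone (-0.90, adjusted p 0.0596), in DESeq2 (-1.04, adjusted p 0.280) and whenever any 1 library was left out (-1.08 to -0.96, adjusted p 0.0634 to 0.150). DBH-AS1, antisense to DBH, had 3, 12, 15 and 12 counts, and reads of the pair cannot be told apart if counting ignored strand. A DBH start was listed in shControl replicate 1 alone, at 0.773 FPKM with its first base at 133636363.

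RefSeq promoter windows (GRCh38.p14, 250 bases before to 50 after an annotated start) were at hand for 5 of the 9 genes, with 2 windows for DDC. NeuroD1 is a basic helix-loop-helix factor, a family that binds E-boxes (CANNTG on either strand), so the windows of DDC, DBH and MAOA are shown as the called genes for which a window was given, with every CANNTG in capitals and the rest in lower case. For DDC the window at the start in use is shown, chr7:50561022-50561321 (minus strand), with DBH at chr9:133636113-133636412 (plus strand) and MAOA at chrX:43656049-43656348 (plus strand).
DDC: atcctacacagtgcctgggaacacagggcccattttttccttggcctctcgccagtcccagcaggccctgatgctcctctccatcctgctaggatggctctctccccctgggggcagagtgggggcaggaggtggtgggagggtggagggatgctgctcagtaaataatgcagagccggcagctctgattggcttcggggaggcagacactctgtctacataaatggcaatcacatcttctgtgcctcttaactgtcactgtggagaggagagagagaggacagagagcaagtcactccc
DBH: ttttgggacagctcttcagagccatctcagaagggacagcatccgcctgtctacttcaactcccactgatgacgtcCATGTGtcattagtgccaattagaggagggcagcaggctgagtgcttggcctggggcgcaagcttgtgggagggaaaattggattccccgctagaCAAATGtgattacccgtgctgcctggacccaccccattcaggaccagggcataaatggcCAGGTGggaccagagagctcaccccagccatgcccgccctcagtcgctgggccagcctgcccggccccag
MAOA: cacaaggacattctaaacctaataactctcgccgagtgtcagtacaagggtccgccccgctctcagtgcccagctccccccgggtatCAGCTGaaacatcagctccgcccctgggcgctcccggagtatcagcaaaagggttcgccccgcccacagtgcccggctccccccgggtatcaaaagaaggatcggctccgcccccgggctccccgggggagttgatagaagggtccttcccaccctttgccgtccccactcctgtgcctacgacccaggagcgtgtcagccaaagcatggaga
The DDC window at the start in use held no CANNTG. Its upstream, non-neuronal window (chr7:50565356-50565655) held 3, of which the first pair overlap: CACATG from base -50, CATGTG from base -48 and CACATG from base 45, counted from the start. The DBH window held 3 as well, CATGTG from base -174, CAAATG from base -79 and CAGGTG from base -20. The MAOA window held 1, CAGCTG from base -163, and the SLC18A2 and MAOB windows held none. CANNTG occurred in 68.7% of all 35116 promoter windows, CAGCTG in 17.9%, and CAGATG or its reverse complement CATCTG, the form NeuroD1 is known to favour, in 14.7%. None of the 6 windows held CAGATG or CATCTG. All of these are forms of CANNTG, and a match says only that the letters are there.

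Storage in vesicles depends on 2 transporters. SLC18A1 (ENSG00000036565, chromosome 8, 20144855 to 20183206, minus strand) encodes the form typical of adrenal chromaffin cells, and it had 0 counts in all 4 libraries. A count of 0 allows up to 3 counts, or between 0.189 and 0.204 CPM in a library, for counting error only. SLC18A2 (ENSG00000165646, chromosome 10, 117241073 to 117279430, plus strand), the form typical of neurons, had 17 and 21 counts under the control hairpin and 12 and 15 after knockdown. The knockdown libraries lay below the controls, at 0.887 ± 0.139 against 1.24 ± 0.120 CPM (SD, n = 2). The difference did not pass the test (log2 fold change -0.48, 95% interval -1.32 to 0.36, edgeR adjusted p 0.340). At this depth a fall beyond 1 on the log2 scale and a small rise both lay inside the interval. PDZD8 overlaps SLC18A2 on the opposite strand with between 850 and 906 counts.

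SLC6A2 (ENSG00000103546, chromosome 16, 55655604 to 55706192, plus strand) encodes the noradrenaline transporter, which also carries the imaging agent MIBG into neuroblastoma cells. It had 1062 and 1067 counts under the control hairpin and 551 and 658 after knockdown. The groups were well apart, and the knockdown libraries differed from each other more than the controls did. The level fell from 69.6 ± 3.44 to 39.7 ± 4.94 CPM (SD, n = 2), a log2 fold change of -0.81 (95% interval -0.95 to -0.66, SE 0.0717, edgeR adjusted p 2.4e-11). It stayed between -0.94 and -0.69 with any 1 library left out. An annotated transcript on the same strand, ENSG00000278928 (55704119 to 55706422), overlaps the end of SLC6A2 and had 421 and 447 counts under the control hairpin and 213 and 221 after knockdown, so the division of reads between the pair is uncertain. The FPKM tables list the starts of this locus under that identifier. The start with a first exon from 55656440 to 55656968 stood at 10.4 and 14.0 FPKM in shControl. It stood at 7.72 and 9.36 FPKM in shNeuroD1, lower in both knockdown libraries. Some other starts and the listed end did not separate the groups. A start with a first exon from 55655604 to 55656169 stood at 4.33, 0.735, 0.678 and 0.827 FPKM in the 4 libraries. A start from 55700274 stood at 0.0137, 0.0103, 0 and 2.58 FPKM, and the end from 55705216 at 1.09, 0.876, 0 and 3.21 FPKM.

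Monoamine oxidases sit on the outer mitochondrial membrane. MAOA (ENSG00000189221, chromosome X, 43654907 to 43746824, plus strand), the form that prefers noradrenaline and serotonin, had 354 and 379 counts under the control hairpin and 1703 and 1701 after knockdown. Both knockdown libraries were far above both controls, and libraries of a group hardly differed. The level rose from 23.9 ± 0.106 to 111.8 ± 0.169 CPM (SD, n = 2), a log2 fold change of 2.22 (95% interval 2.09 to 2.35, SE 0.0643, edgeR adjusted p 1.1e-23). Leaving out any 1 library moved it to between 2.22 and 2.23.

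The assembled transcripts showed the same for MAOA. Its listed start, with a first exon from 43654907 to 43656414 that spans the RefSeq window shown above, went from 4.04 and 3.76 to 20.3 and 20.9 FPKM, and its listed end (43744367 to 43746824) from 3.05 and 3.83 to 19.3 and 19.3 FPKM. An alternative exon of 108 bases (43657862 to 43657969) was included in 78.1% and 23.1% of MAOA transcript signal in shControl and in 11.4% and 14.1% in shNeuroD1. The knockdown libraries were lower than either control, but the controls stood far apart, with shControl replicate 2 closer to the knockdown libraries than to shControl replicate 1. This share was not tested.

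MAOB (ENSG00000069535, chromosome X, 43766611 to 43882447, minus strand), the paralog beside MAOA, had 0 counts in all 4 libraries, with the same limit of 3 counts per library. MAOA was therefore the only monoamine oxidase gene detected in these libraries at this depth.

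**Figure D2:**
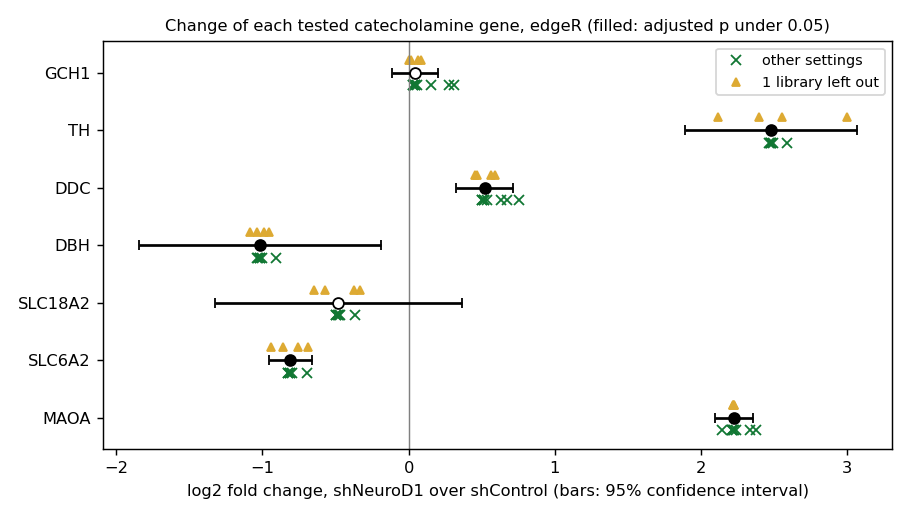
Log2 fold change of shNeuroD1 over shControl (x axis) for the 7 tested genes (y axis), with edgeR 95% confidence intervals as bars and filled circles at an adjusted p under 0.05. Crosses are the other settings and triangles the fits with 1 library left out; all points of TH, DDC and MAOA lie above 0 and all points of DBH and SLC6A2 below it, and the intervals of DBH and SLC18A2 are the widest.

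Levels of different genes were compared as CPM per kb of exon. In shControl SLC6A2 was highest at 12.7 ± 0.629 CPM per kb, followed by GCH1 (11.4 ± 0.457), DDC (6.07 ± 0.408) and MAOA (4.33 ± 0.0192; SD, n = 2 each). DBH (0.407 ± 0.00919), TH (0.299 ± 0.127) and SLC18A2 (0.299 ± 0.0288) came far below, and the order of TH and its neighbours was within their spread. In shNeuroD1 MAOA moved to the top at 20.2 ± 0.0306 CPM per kb, above GCH1 (11.7 ± 0.276), DDC (8.69 ± 0.421) and SLC6A2 (7.27 ± 0.905). TH stood at 1.69 ± 0.130 CPM per kb, between these and the last pair, SLC18A2 (0.214 ± 0.0335) and DBH (0.200 ± 0.0124), which overlapped. In both groups the decarboxylase was well above the hydroxylases that precede and follow it.

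**Figure D3:**
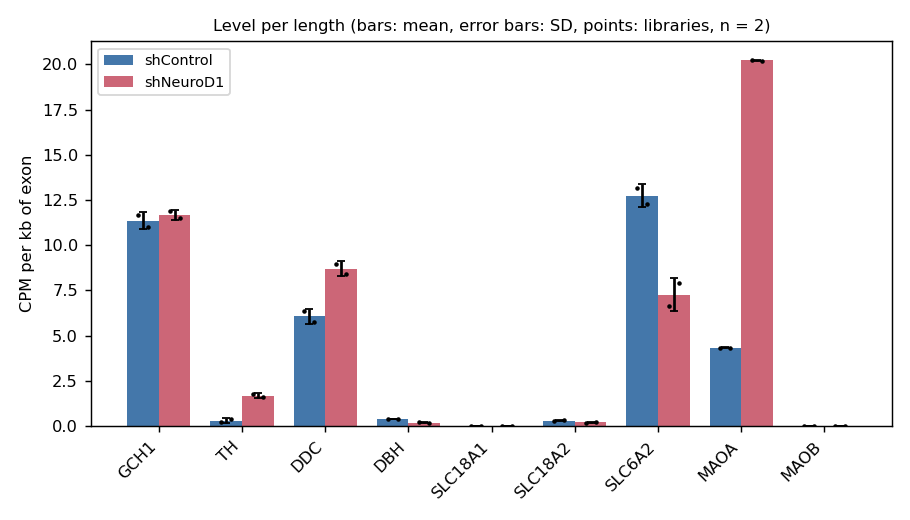
CPM per kb of exon (y axis) for each gene (x axis), with bars for the mean, error bars for the SD and points for the libraries (n = 2 per group). SLC6A2 and GCH1 are highest in shControl and MAOA in shNeuroD1, at 20.2 CPM per kb, while DBH, SLC18A1, SLC18A2 and MAOB stay near 0 in both groups.

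Ratios of counts within a library do not depend on the scaling between libraries. The log2 ratio of TH to DDC was -4.88 and -3.85 for the controls and -2.29 and -2.34 after knockdown, a mean difference of 2.05. The log2 ratio of DDC to DBH was 3.68 and 3.58 for the controls and 5.16 and 5.19 after knockdown, a difference of 1.54. The log2 ratio of TH to DBH was -1.20 and -0.26 for the controls and 2.87 and 2.84 after knockdown, a difference of 3.59. TH had fewer counts than DBH in both control libraries and more in both knockdown libraries. None of the 3 ratios overlapped between the groups, and the exact permutation test (two-sided) gave its smallest possible p of 0.333 for each, so 2 libraries against 2 cannot pass a threshold here.

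The genes whose profiles were nearest to TH and DBH were found among the 10556 tested genes whose mean reached 10 CPM, by the Euclidean distance between centred log2 CPM over the 4 libraries. Nearest to TH were SEMA3A (distance 0.305), which encodes a secreted axon guidance factor, CLU (0.422), DTNA (0.435), SHC3 (0.437) and MAB21L2 (0.467). TH had 10 and 20 counts in shControl, and its log2 fold change had an SE of 0.288. The gaps between these distances are smaller than that SE, so nothing is read from their order. Nearest to DBH were TCF3 (0.0203), which encodes an E protein that pairs with basic helix-loop-helix factors, RTTN (0.0248), ZNRF3 (0.0284), LRRN1 (0.0301) and PLS3 (0.0325). With 4 libraries in 2 groups, such a likeness mostly restates a similar change between the groups. DBH had between 11 and 24 counts a library, and its log2 fold change had an SE of 0.406. Distances of 0.0203 to 0.0325 lie far inside that error, so nothing is read from which genes came nearest to DBH. A prior count of 2 was also added before the log, which shrinks the changes of genes with few counts.

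Genes around the pathway were then described by list, beside the 26.8% of all genes that rose and the 28.2% that fell, and nothing particular to a list is read from its count. Of the 7 genes that make and recycle BH4, all tested, 5 rose and 1 fell, with a median log2 fold change of 0.51. GCHFR, which encodes the feedback regulator of GTP cyclohydrolase 1, rose by 1.39 (SE 0.455, edgeR adjusted p 0.0103) on few reads, 6 and 10 counts in shControl against 22 and 20 in shNeuroD1. GCHFR was under the filter's cutoff in both shControl libraries and was tested only through the group where it is high, so its call is no support for the count. PCBD2, a pterin dehydratase gene, rose by 0.66 (edgeR adjusted p 1.7e-05). The number called higher was 4 in DESeq2, 4 with a mean of at least 1 CPM, 3 without shControl replicate 1 and 1 in both FPKM fits.

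DBH needs copper and, as electron donor, ascorbate. Of the 4 genes that supply them 2 rose and 1 fell, with a median log2 fold change of 0.72. The FPKM fits could not include CYB561 and ATP7A, the 2 that rose, and so do not bear on them. SLC31A1 and ATOX1 could be fitted and were not called, with a median of 0.026 with 1 added and 0.025 with 0.1 added. CYB561, the cytochrome that passes electrons to vesicular ascorbate, had 11 and 24 counts under the control hairpin and 129 and 137 after knockdown, for a log2 fold change of 2.93 (edgeR adjusted p 7.9e-12, SE 0.247). ATP7A, the pump that loads copper into secretory compartments, rose by 1.26 (edgeR adjusted p 5.1e-16). SLC31A1, the copper importer of the cell surface, fell by 0.33 on the log2 scale (edgeR adjusted p 3.7e-05). CYB561 and ATP7A thus moved opposite to DBH itself, whose fall rested on few reads and was not called in every setting.

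Further enzymes of catecholamine metabolism mostly did not pass the test. Of 9 genes 3 fell, 1 rose and 5 did not pass the test, with a median log2 fold change of -0.05. This median was 0.06 with library size alone and -0.20 with a mean of at least 1 CPM. In the FPKM fits it was 0.10 and 0.12, over only those of the genes that could be fitted. ALDH7A1, an aldehyde dehydrogenase gene, fell by 0.38 on the log2 scale (edgeR adjusted p 1.5e-07). ALDH1A1, an aldehyde dehydrogenase of dopaminergic neurons, had 0 counts in both shControl libraries and 20 and 22 in shNeuroD1, at least 7.03-fold higher with 3 counts per control library as the floor. It too was tested only through the group where it is high. PNMT, which turns noradrenaline into adrenaline, had 9 and 11 counts under the control hairpin and 19 and 10 after knockdown and did not pass the test (log2 fold change 0.54, edgeR adjusted p 0.358).

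Of 6 other monoamine carriers 3 were tested, of which 1 rose and 1 fell. SLC6A3, the dopamine transporter gene, had 8 and 10 counts under the control hairpin and 64 and 69 after knockdown, for a log2 fold change of 2.88 (edgeR adjusted p 5.8e-09, SE 0.328). It was under the filter's cutoff in both shControl libraries and so was tested only through shNeuroD1. Per length it stood at 0.979 ± 0.0514 CPM per kb (SD, n = 2) in shNeuroD1, still far below SLC6A2, the transporter that fell. SLC29A4, a low-affinity monoamine transporter gene, fell by 0.47 on the log2 scale (edgeR adjusted p 3.7e-10). The median of the 3 genes, -0.43, was 0.85 without shControl replicate 1, 0.07 without shNeuroD1 replicate 1 and 1.22 with a mean of at least 1 CPM.

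Among 14 adrenergic and dopamine receptor genes 4 were tested, 2 rose and 1 fell, with a median of 0.44. The median was 1.22 with no filter and 1.32 in DESeq2. ADRA2A, an inhibitory receptor through which noradrenergic cells sense their own transmitter, had 38 and 37 counts under the control hairpin and 199 and 207 after knockdown, for a log2 fold change of 2.44 (edgeR adjusted p 2.2e-13, SE 0.177). ADRA2C rose by 0.52 (edgeR adjusted p 0.00149). DRD2, a dopamine receptor with the same inhibitory role, fell from 138 and 202 counts to 39 and 51, a log2 fold change of -1.90 (edgeR adjusted p 6.1e-10, SE 0.195). The 3 called receptors all couple to inhibitory G proteins, and they did not move together. The number of receptor genes called higher was 1 in place of 2 in DESeq2, without shControl replicate 1 and without shControl replicate 2.

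Genes of other transmitters fell where they were called. Of 11 genes 4 were tested and 3 fell, none rose, and the median was -1.02. In both FPKM fits 1 fell, CHAT, and SLC18A3 and SLC17A7 could not be fitted there. CHAT, which makes acetylcholine, went from 2682 and 2987 counts to 661 and 686, a log2 fold change of -2.06 (edgeR adjusted p 1.2e-24, SE 0.0546). SLC18A3, the vesicular acetylcholine transporter gene that lies within the CHAT locus, fell by 0.52 on the log2 scale (edgeR adjusted p 6.4e-06), and the division of reads between the pair is uncertain. SLC17A7, a vesicular glutamate transporter gene, had 79 and 83 counts under the control hairpin and 27 and 29 after knockdown (log2 fold change -1.52, edgeR adjusted p 2.5e-06).

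Transcription factors known to act on noradrenergic genes moved in both directions too. Of 13 genes 12 were tested, 8 fell and 2 rose, with a median of -0.23. EGR1, an immediate early factor with a site in the TH promoter, fell from 722 and 755 counts to 142 and 138 (log2 fold change -2.39, edgeR adjusted p 3.8e-20), while TH rose. INSM1, a neuroendocrine zinc finger factor, fell by 1.81 on the log2 scale (edgeR adjusted p 1.0e-22). With library size alone 5 of the 12 fell in place of 8, and in both FPKM fits 1 fell, with medians of -0.06 and -0.07. HAND2, INSM1 and NR4A2 fell in the main fit but could not be fitted on FPKM.

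**Figure D4:**
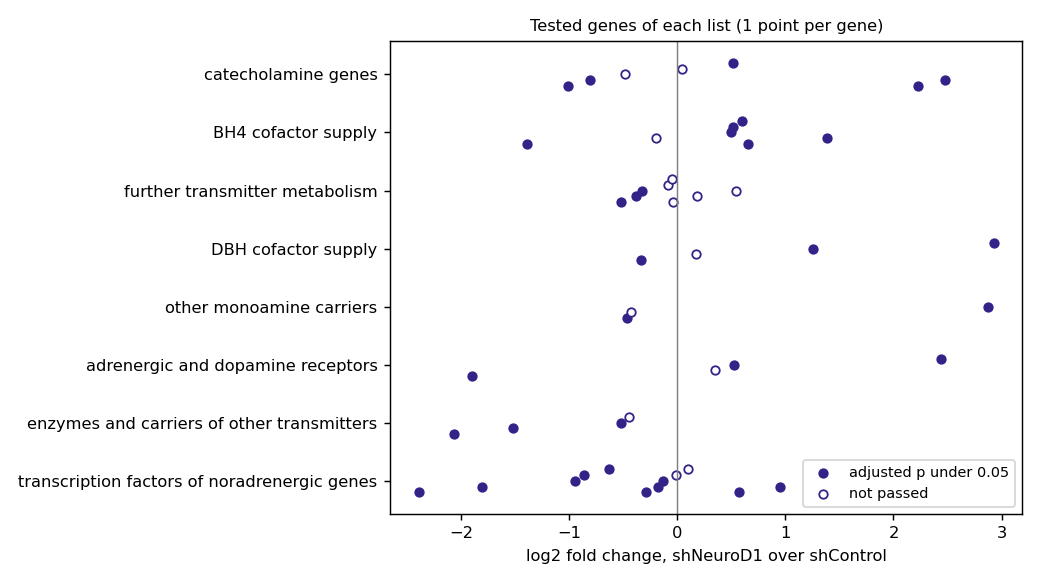
Log2 fold change of shNeuroD1 over shControl (x axis) for the tested genes of the catecholamine set and of 7 related lists (y axis), with a point per gene, filled at an adjusted p under 0.05. ALDH1A1 is not drawn because its control libraries are at 0; CYB561, SLC6A3, TH, ADRA2A and MAOA lie beyond 2 to the right, and EGR1 and CHAT beyond 2 to the left.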

How the data were processed

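RNA sequencing of 4 IMR-32 libraries was analysed, 2 shControl and 2 shNeuroD1, with groups taken from the sample titles. The authors deposited raw counts per gene (HTSeq 0.6.1) and FPKM of transcript starts, ends and splicing events per library, which list only events above 0. The submitters' processing notes also name cutadapt 1.9.1, HISAT2 2.0.1, DESeq2 and hg38. Whether counting used strand was not given in the sources used here. Counts were fitted in edgeR 4.0.16 (R 4.3.3) with filterByExpr (minimum count 10), TMM scaling, the two-sided quasi-likelihood F test and Benjamini-Hochberg adjustment over all genes tested. The SE of a log2 fold change is its size over the square root of F. Gene coordinates and exon lengths are those of GENCODE 29, and promoter windows those of RefSeq. Libraries of 14665210 to 16482463 counts limit genes near 10 counts to wide intervals.

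The members and lists were chosen with earlier results of these data known, including results for several of these genes. Genes named are NEUROD1, the 9 members, the 3 called genes of each list with the largest change, and the 5 genes nearest to the member with the largest change in each direction. Some of the genes so chosen are not reported here. PNMT was named after its values were seen. Alternatives were DESeq2 size factors, library size alone, no filter, DESeq2 1.42.0, a minimum mean of 1 CPM, the replicate number as a block, limma 3.58.1 on log2(FPKM + 1) and log2(FPKM + 0.1) where the mean reached 1 FPKM, a log2 fold change beyond 1, and leaving out each library. With 1 library left in a group, that library was assumed to vary like the other group. NEUROD1 was left out of the limma fits, because its FPKM rows belong to a merged locus. The edgeR fit with TMM, the DESeq2 fit and a limma fit on scaled counts with 1 added were tested on simulated data with 200 changed genes. The other settings were not simulated.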

Additional observations from a re-analysis of the deposited data

How the results depend on the processing

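TH, SLC6A2 and MAOA kept their direction and their call at an adjusted p under 0.05 in every setting that could fit them. TH ranged from 2.46 to 2.59 on the log2 scale (from 2.12 to 3.0 with 1 library left out), SLC6A2 from -0.82 to -0.70 (-0.94 to -0.69) and MAOA from 2.14 to 2.37 (2.22 to 2.23). Of these genes TH passed the filter of the main fit only through shNeuroD1. GCH1 (0.0026 to 0.085 with 1 library left out) and SLC18A2 (-0.65 to -0.33) were never called. DDC (0.45 to 0.59 with 1 library left out) missed the threshold in the FPKM fits, at 0.67 with 1 added (adjusted p 0.0692) and 0.75 with 0.1 added (adjusted p 0.0718). DBH (-1.08 to -0.96 with 1 library left out, in no such fit called) also missed it with library size alone (-0.90) and in DESeq2 (-1.04). The number of members called lower was therefore 1, in place of 2, with library size alone and in DESeq2. It was also 1 with a log2 fold change beyond 1, where DBH (-1.01) was kept and SLC6A2 (-0.81) was lost. In both FPKM fits 0 members were called lower and 1, MAOA, higher. These fits tested 10083 genes and held GCH1, DDC and MAOA alone of the members. Members called higher were 3 with any 1 library left out (3 to 3) and 2 with a log2 fold change beyond 1. Over all genes DESeq2 called 2757 as higher in place of 4698, and 998 in place of 1541 beyond 1.

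Libraries with the same replicate number did not deviate together (correlation 0.0158 over 17537 genes), and were not taken as pairs. With the replicate number as a block the member calls did not change, and DBH stood at -1.02 (adjusted p 0.0402). Other values, of lists and of all genes, moved in 64 cases and stayed within their limit in 148. No call reversed, but the medians of the other monoamine carriers and of further transmitter metabolism changed sign under some settings. The FPKM form of the TH and DBH ratios could not be computed, because those genes have libraries with no listed start. TH, DBH and SLC18A2 rest on 10 to 88 counts a library, which limits what these libraries can show of them.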
